A study of Mus musculus with 4 samples.

Results

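The genes described here encode the 3 chains of complement C1q and 7 proteins by which phagocytes recognise and take up dead cells, a process called efferocytosis. They are C1qa, C1qb and C1qc, the receptor kinases Mertk and Axl, the bridging proteins Gas6 and Mfge8, the crosslinking enzyme Tgm2, and the uptake receptors Cd36 and Lrp1. They were chosen by name and matched by symbol to probe sets that list 1 gene. All 10 were found among 18193 genes, and all 10 passed the filter on low signals, as did 12187 genes in all. The series holds 4 Affymetrix mouse arrays, 2 from mice given granulocyte colony-stimulating factor (G-CSF) and 2 from mice given phosphate-buffered saline (PBS). G-CSF is a cytokine that drives the production of neutrophils, short-lived cells that die in tissue and are then cleared. In the G-CSF group recombinant human G-CSF was injected at 100 µg/kg, and the PBS group received mouse serum albumin at 0.1% in PBS, in both cases over the 7 days before the last toxin dose. All mice were C57BL/6, and all had 30 injections of carbon tetrachloride, a hepatotoxin that produces liver fibrosis, at 1 ml/kg. The labels give the age of no animal and do not say whether the arrays come from separate or pooled animals, so p-values reflect the spread of these arrays, which may be technical. The labels name the material both as liver tissue and as bone marrow-derived cells, with no sort or gate in the sources used here.

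C1q is the recognition unit of the classical complement pathway. Its A, B and C chains are made together by tissue macrophages, and C1q also coats dying cells. Mertk and Axl bind phosphatidylserine on dead cells through Gas6, and Mfge8 links the same lipid to integrins. Cd36 and Lrp1 bind altered lipids and C1q- or calreticulin-coated surfaces, and Tgm2 stabilises the integrin contact. In liver, Kupffer cells and recruited macrophages carry this machinery, while Lrp1 and Tgm2 are also made by hepatocytes and endothelial cells. In a bulk sample such as these, fewer cells of a type and less RNA per cell cannot be told apart.

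The 3 C1q genes lie next to each other on mouse chromosome 4, in the order C1qb, C1qc, C1qa, and their signals followed one pattern over the arrays, so the upstream sequences of C1qb and C1qc are shown. The sequences are from RefSeq, build GRCm38.p6, minus strand, chr4:136886201-136886450 for C1qb and chr4:136892937-136893164 for C1qc, and end just before the annotated gene. Capitals mark GAGGAA or its reverse complement TTCCTC, the core bound by the myeloid factor PU.1, and TGCTGA, a half-site of the MAF factors.
C1qb: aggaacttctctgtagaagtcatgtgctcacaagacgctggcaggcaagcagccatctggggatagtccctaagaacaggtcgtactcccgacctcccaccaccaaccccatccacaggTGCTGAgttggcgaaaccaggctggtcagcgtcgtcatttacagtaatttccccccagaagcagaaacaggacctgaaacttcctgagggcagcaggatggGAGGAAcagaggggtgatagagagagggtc
C1qc: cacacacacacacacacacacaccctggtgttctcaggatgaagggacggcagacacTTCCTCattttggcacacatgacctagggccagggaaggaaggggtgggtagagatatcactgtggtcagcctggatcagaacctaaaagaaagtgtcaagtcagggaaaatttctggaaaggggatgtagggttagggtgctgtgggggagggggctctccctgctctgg
Both strands were searched in the 250 bases before each start in the table, of which the 228 outside the annotated gene are printed for C1qc, and no capital stretch overlaps another. GAGGAA or TTCCTC was found for 4 of the 8 genes with a sequence (C1qb, C1qc, Axl and Mfge8), against 23.3% of all 32851 promoter windows. TGCTGA or TCAGCA was found for C1qb and Cd36, against 16.1% of all windows. C1qa and Tgm2 are not in the promoter table. A match describes the letters in the window and shows no binding.

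One PBS array stands apart and touches every result below. Over the tested genes its Pearson correlation with the other arrays was 0.813 to 0.844, against 0.939 to 0.974 among the other 3. The 10 tested T cell markers summed to a signal of 4022 and 2828 in G-CSF replicates 1 and 2 and of 26262 and 2724 in PBS replicates 1 and 2. Hepatocyte transcripts were abundant on all 4 arrays, with Alb, the main plasma protein, at 52315 and 46302 with G-CSF and 43301 and 46068 with PBS. They were not level, as the 10 hepatocyte markers summed to 267406 and 249336 with G-CSF and to 165045 and 306694 with PBS. The ratio of 3' to 5' Gapdh control signals, a measure of RNA and amplification quality, was 20.2 and 19.1 with G-CSF and 15.7 and 14.8 with PBS. For Actb the ratio was 12.6 and 13.7 with G-CSF and 11.2 and 9.88 with PBS. On all 4 arrays the 3' signals were thus far above the 5' signals. The 14 tested neutrophil markers summed to 305511 and 253667 with G-CSF and to 29096 and 17995 with PBS.

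Against this background of a far higher neutrophil signal, none of the 10 clearance genes differed between G-CSF and PBS beyond the spread between arrays. By the test given below, 0 of the 14 tested neutrophil markers were called either. All 14 were higher with G-CSF with no overlap between groups, against 18.6% of all tested genes. For the 10 clearance genes the PBS arrays held the extremes. PBS replicate 1 was the lowest of the 4 arrays for all 10 genes, PBS replicate 2 was the highest for 9 of them, and the G-CSF arrays lay between. Over all tested genes, PBS replicate 1 was lowest for 47% and PBS replicate 2 highest for 28.4%. Both held for 21.8% of tested genes and for 9 of the 10. PBS replicate 2 was at least 2 times PBS replicate 1 for 8 of the 10, all but Mfge8 and Tgm2, and for 21.9% of all tested genes. Differences below are the G-CSF mean less the PBS mean of log2(signal + 23), given with limma's standard error (SE, n = 2 arrays per group), and folds are taken on that scale.

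**Figure D1:**
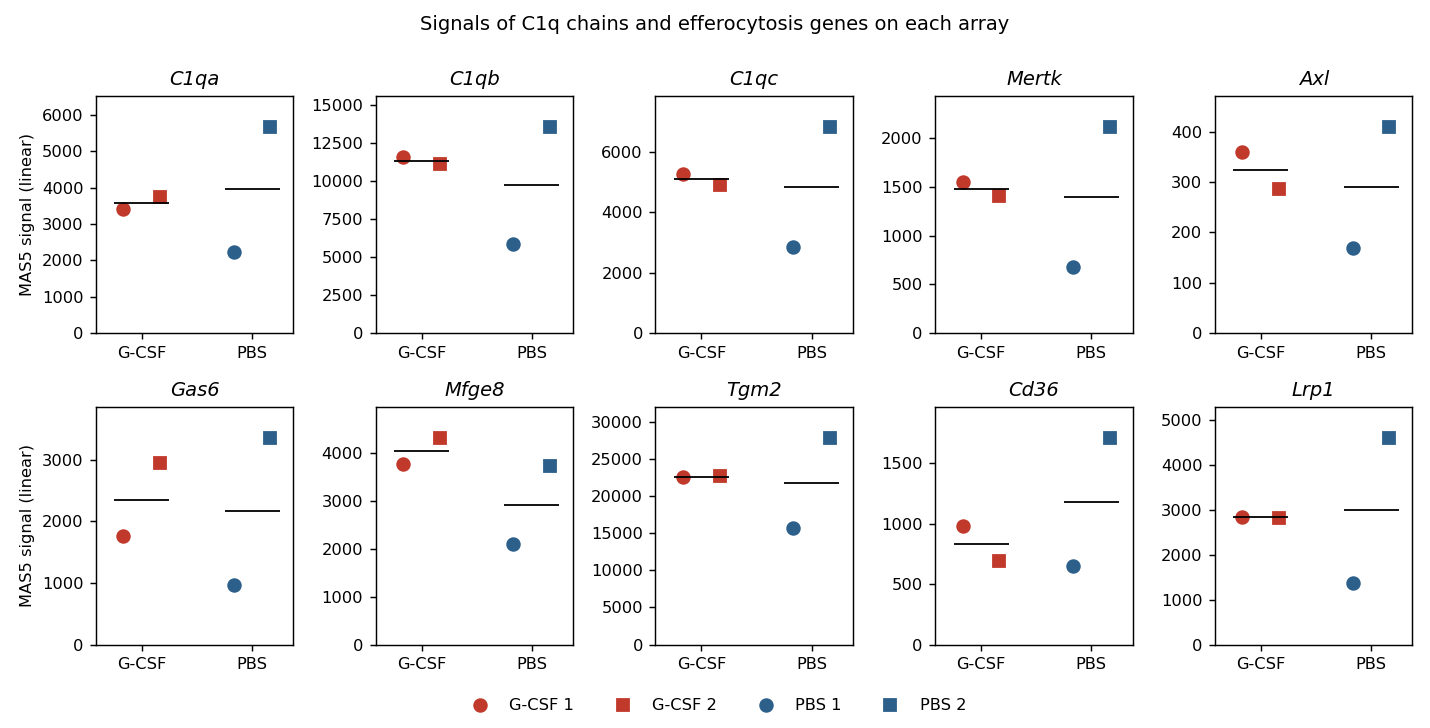
MAS5 signal on a linear scale from 0 for each of the 10 genes, with one point per array (2 G-CSF arrays on the left, 2 PBS arrays on the right) and a line at each group mean. PBS replicate 1 is the lowest point in all 10 panels, and PBS replicate 2 is the highest in every panel but that of Mfge8.

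The C1q chains had nearly the same levels on both G-CSF arrays and differed more than 2-fold between the PBS arrays. C1qa, the A chain, had signals of 3410.1 and 3752 with G-CSF, against 2243 and 5673 with PBS. C1qb, the B chain, had 11534 and 11097 with G-CSF, against 5882 and 13562 with PBS. C1qc, the C chain, had 5269.8 and 4913 with G-CSF, against 2864 and 6831 with PBS. For each chain both G-CSF values thus lay inside the PBS range. The differences were 0.0031 ± 0.52 for C1qa, 0.34 ± 0.47 for C1qb and 0.20 ± 0.49 for C1qc (SE, n = 2 arrays per group). In limma after Benjamini-Hochberg adjustment over all tested genes their adjusted p-values were 1.00, 0.988 and 0.988. The 95% interval of the C1qa fold ran from 0.401 to 2.50, the bounds within which these arrays place it. The other C1qb probe sets, with differences of 0.19 and 0.24, also had PBS replicate 1 lowest and PBS replicate 2 highest. The main C1qb probe set carries the suffix _x_at, which marks probes that may bind other transcripts, while the C1qb probe set with a difference of 0.24 does not.

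Mertk, the main efferocytosis receptor kinase of macrophages, had signals of 1549.8 and 1405 with G-CSF, against 678 and 2118 with PBS. The G-CSF arrays differed 1.10-fold, while PBS replicate 2 was 3.12-fold above PBS replicate 1. The difference was 0.29 ± 0.60 (limma adjusted p = 0.988, 95% interval −1.23 to 1.81, SE, n = 2 arrays per group). Axl, the related kinase that inflammation induces, gave a weaker signal, with 359 and 286 with G-CSF against 169 and 409.7 with PBS. Its difference was 0.25 ± 0.50 (limma adjusted p = 0.988), and its second probe set lay at 15.9 to 27.1 on all arrays, under the background. Tyro3, the third kinase of the family, was not tested because its signals, 40.4 and 43.0 with G-CSF and 48.2 and 57.1 with PBS, lay below the filter on low signals.

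Gas6, the ligand that bridges Mertk and Axl to dead cells, was the member with the widest spread within both groups. Its signals were 1757 and 2938 with G-CSF, against 967 and 3353 with PBS, a 3.47-fold gap between the PBS arrays. The difference was 0.33 ± 0.68 (limma adjusted p = 0.988), with a 95% interval of the fold from 0.380 to 4.15. A dim second Gas6 probe set, at 16.2 to 98.2 and above background on 1 array, gave 0.81. With the mean of its probe sets Gas6 differed by 0.57. Pros1, protein S, the other ligand of these kinases, had 1599 and 1798 with G-CSF, against 842 and 1952 with PBS (0.39 ± 0.49, limma adjusted p = 0.988).

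Mfge8, the lactadherin that links phosphatidylserine to integrins, was the only member whose groups did not overlap. Its signals were 3784 and 4322 with G-CSF, against 2106 and 3724 with PBS, so the lower G-CSF array exceeded the higher PBS array by little. The difference was 0.53 ± 0.40 (limma adjusted p = 0.988, fold 1.44 with a 95% interval from 0.705 to 2.94). Of all tested genes, 30.7% had groups that did not overlap, 18.6% with G-CSF above PBS and 12.1% with G-CSF below, so 1 of 10 members is no more than that share. With each array centred on its median, the Mfge8 groups overlapped too.

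Tgm2, transglutaminase 2, gave signals of 22514 and 22625 with G-CSF, against 15676 and 27825 with PBS. Both G-CSF values were within 1% of each other and again lay inside the PBS range. The difference was 0.11 ± 0.36 (limma adjusted p = 0.991), and the other 5 Tgm2 probe sets gave 0.059 to 0.85. The value of 0.85 came from a probe set with signals of 13.8 to 78.9. The main Tgm2 probe set also carries the suffix _x_at. The brightest Tgm2 probe set without it had 2711 and 3217 with G-CSF, against 1659 and 4670 with PBS. Its PBS arrays were 2.82-fold apart, and those of a dimmer one without the suffix 1.66-fold.

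Cd36, a scavenger receptor for oxidised lipid and thrombospondin, was the only member with a negative difference, save that C1qa came to −0.051 when each array was centred on its median. Its signals were 978 and 688 with G-CSF, against 649 and 1713 with PBS, and PBS replicate 1 lay just below the lower G-CSF array. The difference was −0.36 ± 0.55 (limma adjusted p = 0.988, 95% interval of the fold from 0.294 to 2.07). The other Cd36 probe sets lay on the opposite side of 0, at 0.18 and 0.15, so the direction depended on the probe set. Lrp1, the endocytic receptor that pairs with calreticulin, had signals of 2837 and 2822 with G-CSF, against 1375 and 4596 with PBS. The G-CSF arrays were 1.01-fold apart and the PBS arrays 3.34-fold apart. The Lrp1 difference was 0.17 ± 0.62 (limma adjusted p = 0.992). A dimmer Lrp1 probe set gave 0.06, with its PBS arrays 1.79-fold apart.

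Across the 10 genes the median difference was 0.23, against 0.07 over all tested genes, and the range was −0.36 to 0.53. Limma called 0 of the 10 members at an adjusted p below 0.05, with 0% of all tested genes called in either direction. The 14 tested neutrophil markers, with a median difference of 4.71, were not called either, so a missing call does not show a lack of change. An unadjusted limma p below 0.05 was found for 0 of the 10 members, all 14 tested neutrophil markers and 3.52% of all tested genes. For one gene, the smallest two-sided p that an exact permutation test allows with 2 arrays per group is 0.33. The SD within the groups, on the log2 scale, was 0.0050 to 0.52 with G-CSF and 0.58 to 1.25 with PBS, so the PBS arrays held most of the spread.

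The sign of the comparison depended on which PBS array served as the control. Against PBS replicate 1 alone, all 10 genes were higher with G-CSF, by 0.33 (Cd36) to 1.21 (Gas6), with a median of 0.89. Limma then called 8 of the 10 higher, all but Axl and Cd36, where 22.6% of all tested genes were called higher. Against PBS replicate 2 alone, 9 of the 10 were lower with G-CSF, down to −1.04 for Cd36, −0.70 for Lrp1 and −0.66 for C1qa, with a median of −0.47. Mfge8 was the exception, at 0.12. Limma then called 0 of the 10 (smallest adjusted p = 0.0861, for Lrp1), where 2.78% of all tested genes were called higher and 1.45% lower, and 5 of the 10 had an unadjusted p below 0.05, as did 17.5% of all tested genes. The control array in each of these fits is single and was assumed to vary as the G-CSF arrays do.

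**Figure D2:**
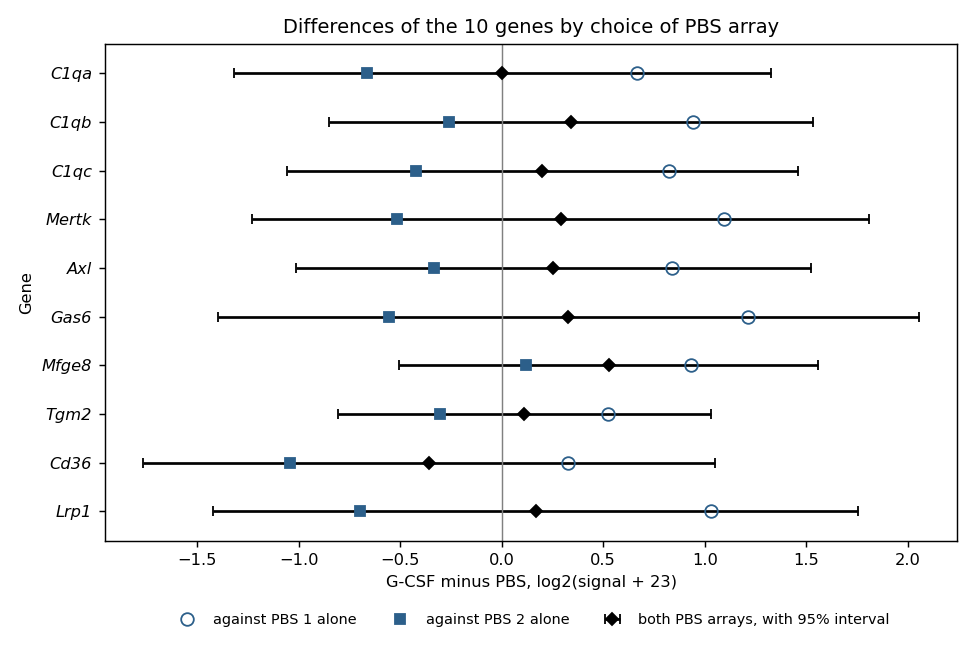
Difference of mean log2(signal + 23), G-CSF minus PBS, for each of the 10 genes, against both PBS arrays (diamonds, with the 95% interval of the limma fit), against PBS replicate 1 alone (open circles) and against PBS replicate 2 alone (squares). All 10 intervals span 0, all circles lie above 0, and all squares but that of Mfge8 lie below it.

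PBS replicate 1 was also the lowest array for the macrophage, Kupffer cell, hepatocyte and endothelial marker lists, and PBS replicate 2 was the highest for the first 3 of these. As the mean over genes of the deviation from each gene's own mean over the 4 arrays, the 10 members stood at 0.09 in both G-CSF arrays, −0.75 in PBS replicate 1 and 0.56 in PBS replicate 2. The 11 tested macrophage markers stood at 0.17 and 0.15 with G-CSF and at −0.67 and 0.36 with PBS. The 9 tested Kupffer cell markers stood at 0.0028 and −0.08 with G-CSF and at −0.59 and 0.66 with PBS. All of these lists were thus low in PBS replicate 1 and high in PBS replicate 2. The 10 hepatocyte markers gave 0.29 and 0.06 with G-CSF and −0.89 and 0.53 with PBS, and the 10 tested endothelial markers gave 0.11 and 0.41 with G-CSF and −0.89 and 0.37 with PBS. T cell markers ran the other way, at −0.82 and −0.84 with G-CSF and at 2.57 and −0.91 with PBS. The low C1q and receptor signals of PBS replicate 1 came together with low hepatocyte, endothelial and macrophage signals and high T cell signals, and the part of these in the result was not tested.

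**Figure D3:**
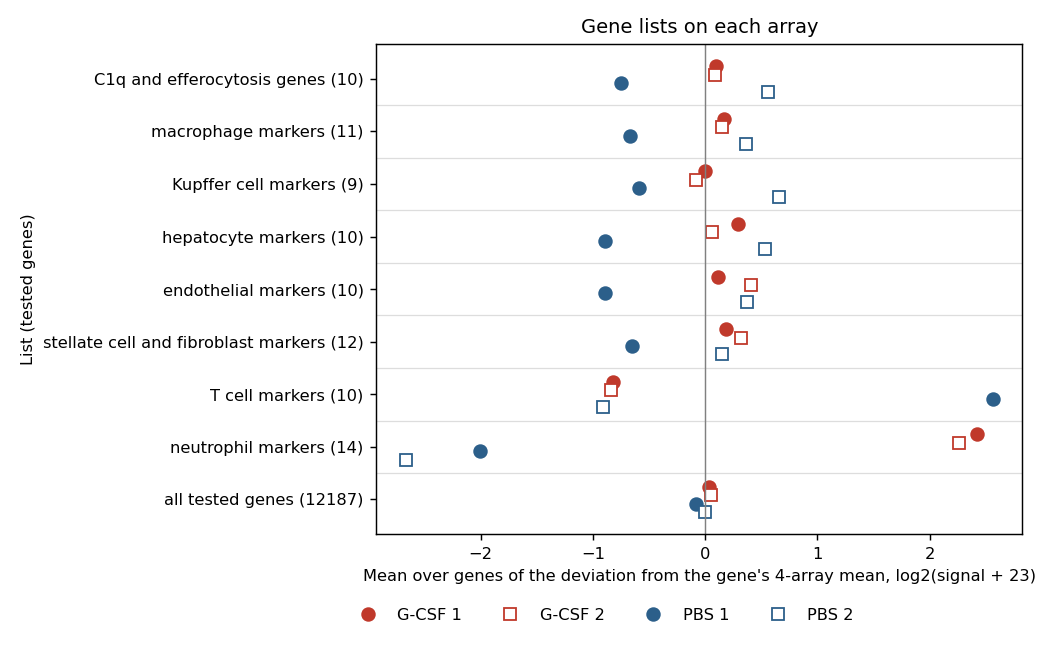
Mean over the tested genes of each list (number in brackets) of the deviation from the gene's mean over 4 arrays, on the log2(signal + 23) scale, with one point per array. The C1q and efferocytosis genes, at −0.75 in PBS replicate 1 and 0.56 in PBS replicate 2, follow the order of the hepatocyte and macrophage lists, while the neutrophil list separates the groups.

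In summed signal the macrophage list gave 68535 and 66793 with G-CSF and 34384 and 71111 with PBS, and the 10 members gave 53992 and 54848 with G-CSF and 32609 and 69804 with PBS. Csf1r, the growth factor receptor of macrophages, had 27454 and 27015 with G-CSF, against 15362 and 32950 with PBS (0.28 ± 0.42, limma adjusted p = 0.988). Adgre1, which encodes F4/80, had 3479 and 2950.3 with G-CSF, against 1799 and 3861 with PBS (0.28 ± 0.47). Both macrophage genes, like C1q, were lowest in PBS replicate 1 and highest in PBS replicate 2. Cd68, a lysosomal protein of phagocytes, had 1908 and 1807 with G-CSF, against 690 and 1666 with PBS (0.78 ± 0.50, limma adjusted p = 0.988). Clec4f, a Kupffer cell lectin, had 1298 and 1193 with G-CSF, against 705 and 2487 with PBS (−0.09 ± 0.64). Timd4, a phosphatidylserine receptor of resident Kupffer cells, lay below the background on all arrays, with 28.3 and 17.7 with G-CSF and 35.7 and 64.3 with PBS, as did Marco and, among macrophage markers, Siglec1. None of the listed markers had a signal of 0.

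The tested genes nearest to the mean C1q profile, by root mean square distance of the centred log2 values over 4 arrays, were Ube2e2, Mmp14, B3gat3, Gadd45g and Acbd4, at 0.019 to 0.030. They encode a ubiquitin-conjugating enzyme, a membrane matrix metalloproteinase, a glycosaminoglycan glucuronyltransferase, a stress-response protein and an acyl-CoA binding domain protein. Csf1r ranked 85 of 12184 genes at 0.074. Among the members, Axl was nearest to C1q at 0.12, followed by Mertk at 0.14, Tgm2 at 0.16 and Lrp1 at 0.16, while Mfge8 at 0.24, Cd36 at 0.32 and Gas6 at 0.33 were farther. With 4 arrays these distances describe the arrays only.

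Components that act with C1q gave 0 calls as well, where 0% of all tested genes were called. Of 8 tested partners and regulators, Lrp1 included, 7 were lowest in PBS replicate 1, and the median was 0.18. C1ra, a protease of the C1 complex, had 1093 and 1172 with G-CSF, against 347 and 1712 with PBS (0.53 ± 0.76). Cd93, once described as a C1q receptor, had 1484 and 2016 with G-CSF, against 883 and 1747 with PBS (0.47 ± 0.46). C1qbp, a mitochondrial protein that binds C1q heads, was the only one whose groups did not overlap, with 21565 and 21705 with G-CSF against 30727 and 23647 with PBS (−0.32 ± 0.27, limma adjusted p = 0.988). No overlap was found for 30.7% of all tested genes.

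Other opsonins and engulfment receptors held the largest differences of the clearance pathway, although none passed limma's adjusted threshold, which 0% of all tested genes passed. Of 11 tested bridging proteins and opsonins, 0 were called and the median was 0.26. In 4 of them G-CSF lay above PBS with no overlap, against 18.6% of all tested genes. Fcnb, ficolin B, an opsonin of myeloid cells, had 794 and 979.6 with G-CSF, against 92.7 and 116 with PBS (2.83 ± 0.34, limma adjusted p = 0.148), and its PBS replicate 1 signal lay under that array's background. Anxa1, annexin A1, abundant in neutrophils, had 39857 and 28115 with G-CSF, against 5621 and 6086 with PBS (2.51 ± 0.31, limma adjusted p = 0.151), or 1.35 with the mean of all its probe sets. Lgals3, galectin 3, had 18405 and 15788 with G-CSF, against 4804 and 8914 with PBS (1.38 ± 0.40, limma adjusted p = 0.988). These 3 genes were named for the smallest unadjusted p of their list. Their groups did not overlap, so neither PBS array alone could turn the direction. Of 13 tested engulfment receptors, 0 were called and the median was 0.43. In 4 of them G-CSF lay above PBS with no overlap, beside the same 18.6% of all tested genes. Cd300lf, a phosphatidylserine-binding receptor of myeloid cells, had 2625 and 2113 with G-CSF, against 159 and 556 with PBS (2.87 ± 0.62, limma adjusted p = 0.611). Cd300lb, its activating relative, had 2385 and 2168 with G-CSF, against 436 and 672 with PBS (2.02 ± 0.37, limma adjusted p = 0.380). Itgb2, the beta 2 integrin chain of leukocytes, had 6559 and 6121 with G-CSF, against 2195 and 2808 with PBS (1.34 ± 0.32, limma adjusted p = 0.795). These 6 genes kept a positive difference whichever array was left out. They were chosen for the smallest unadjusted p of their lists in these same arrays, so this is no separate support. Each fit without an array has 1 array in a group, so only differences are given. Over the arrays left out, the differences were 2.68 to 2.98 for Fcnb, 2.26 to 2.76 for Anxa1 and 0.93 to 1.82 for Lgals3. They were 2.04 to 3.71 for Cd300lf, 1.72 to 2.32 for Cd300lb and 1.17 to 1.52 for Itgb2. The 8 tested monocyte markers summed to 55609 and 52252 with G-CSF and to 14687 and 23110 with PBS. Their median difference was 1.40, and 6 of 8 were higher with no overlap, against 18.6% of all tested genes. Neutrophil markers, monocyte markers and the Gapdh ratio were higher on the same 2 arrays, and their part in these differences was not tested.

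Inside the cell, differences in the machinery of engulfment ran from −0.27 to 0.81. Of 17 tested genes of engulfment and phagosome formation, 0 were called, where 0% of all tested genes were, and the median was 0.23. With no overlap 5 were higher and 1 lower, against 18.6% and 12.1% of all tested genes. PBS replicate 1 was lowest for 7 of the 17 and PBS replicate 2 highest for 5. The smallest unadjusted p-values belonged to Atg7, Gulp1 and Dock1, with differences of 0.62 ± 0.32, 0.51 ± 0.35 and 0.47 ± 0.36. Atg7 acts in the lipidation of LC3, Gulp1 is an adaptor of engulfment receptors, and Dock1 activates the GTPase Rac1. Of 11 tested genes of lipid handling after uptake, 0 were called and the median was 0.28. Slc2a1, the glucose transporter GLUT1, had 1822 and 1724 with G-CSF, against 794 and 905 with PBS (1.04 ± 0.32, limma adjusted p = 0.988). Abca1, the cholesterol exporter, had 7234 and 7486 with G-CSF, against 3196 and 6945 with PBS (0.64 ± 0.46), and Abca7 differed by 0.54 ± 0.34. Nr1h3, which encodes the sterol sensor LXR alpha, had 198 and 191 with G-CSF, against 148 and 446 with PBS (−0.38 ± 0.57).

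Signals that attract or repel phagocytes gave 0 calls as well, with 0% of all tested genes called. Of 7 tested find-me genes, Panx1, the channel that releases nucleotides from dying cells, was the 1 gene whose groups did not overlap, with 168 and 356 with G-CSF against 847 and 385 with PBS (−1.14 ± 0.56, limma adjusted p = 0.988). No overlap was found for 30.7% of all tested genes. Cx3cl1, fractalkine, and Sphk2, a sphingosine kinase, differed by 0.53 ± 0.41 and 0.56 ± 0.46. Among 3 tested do-not-eat-me genes, Cd47 had 5420 and 5292 with G-CSF, against 3960 and 4720 with PBS (0.31 ± 0.31). Its receptor Sirpa had 2426 and 2218 with G-CSF, against 899 and 2366 with PBS (0.66 ± 0.53), and Cd24a had 14252 and 14142 with G-CSF, against 15719 and 4954 with PBS (0.68 ± 0.59). Of 5 tested genes of Mertk and Axl shedding and signalling, 0 were called, with Ptpn11, Socs3 and Vav1 at 0.27 ± 0.31, 0.19 ± 0.39 and 0.10 ± 0.42.

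**Figure D4:**
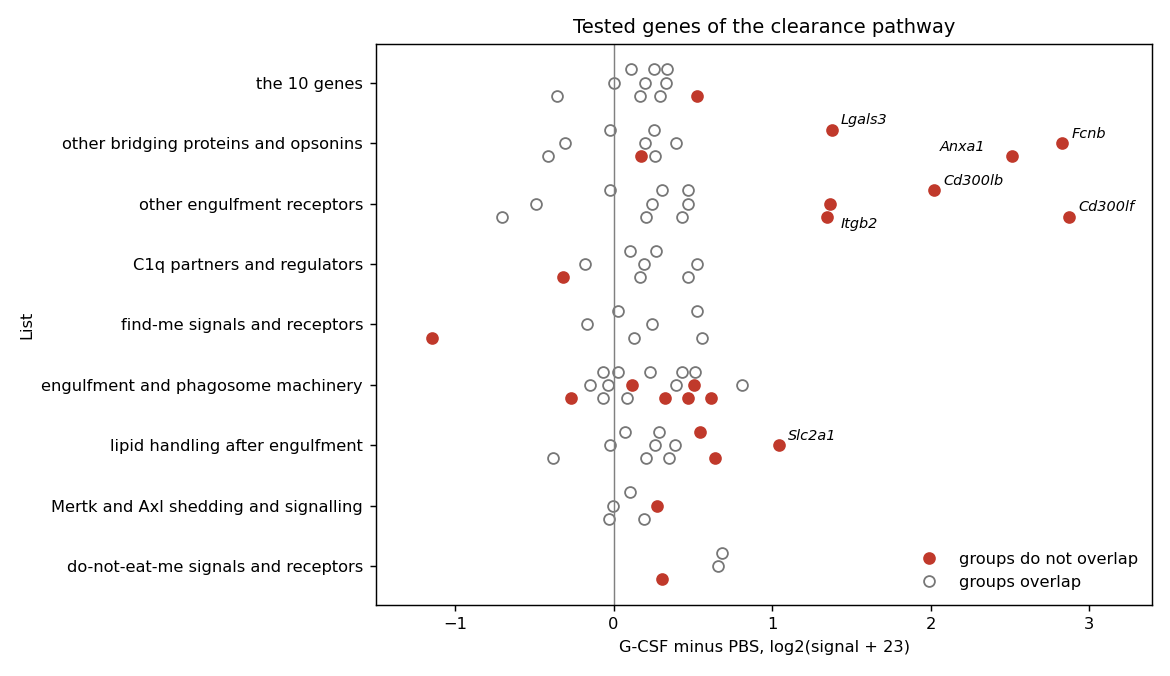
Difference of mean log2(signal + 23), G-CSF minus PBS, for each tested gene of the clearance pathway, by list, with filled points for genes whose groups do not overlap and open points for the rest. Names mark genes with an unadjusted p below 0.05. The 10 genes lie between −0.36 and 0.53, while Fcnb, Anxa1 and Cd300lf lie above 2.5.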

How the data were processed

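Per the submitters' processing notes, the authors computed MAS5 signals; the deposited intensity values are linear, for 45101 probe sets, with a 2% trimmed mean of 500.003 on each array, and that scaling was kept. Which MAS5 version was used is not stated. Left out were 64 control probe sets, 932 with more than 1 gene and 9160 with no gene in the platform table; the other 34945 have 1 gene, and 34741 of these were matched by Entrez ID to a RefSeq gene table. For each gene the brightest probe set on average was used, and genes averaging over 95.0, the median of non-control probe sets, were tested. A pseudocount of 23 was added before log2. G-CSF was compared with PBS with limma 3.58.1 in R 4.3.3 (lmFit, eBayes with trend, two-sided), with Benjamini-Hochberg adjustment over 12187 genes at 0.05. Background was the highest of 27 bacterial control signals, 86.4 and 63.0 with G-CSF and 106 and 94.6 with PBS. The number of arrays limits the precision. The script was tested on simulated data. The members and lists were chosen with earlier results of these data known. Genes named beside the members are the 3 with the smallest p of each pathway list, the 5 nearest to the C1q profile, and a fixed set; marker lists are given by sums and means. C3, C4b, Nr1h2, Ucp2, Acsl1 and Ptk2 have no single-gene probe set in the table used. Alternatives changed the normalization (quantile, or centring on the median), the pseudocount (1 or 92), the filter (none, or the 75th percentile), the moderation (without trend, or robust) and the choice of probe sets (their mean, or specific ones); others added the replicate number as a block or left out each array in turn. Replicate numbers were not used as pairs in the main fit. The deviations of same-numbered arrays had a correlation of −0.038, which cannot settle whether the arrays were paired. Python 3.11.15 with pandas 2.3.3 and matplotlib 3.10.9 made the figures.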

Additional observations from a re-analysis of the deposited data

How the results depend on the processing

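No normalization, pseudocount, filter, model or probe set setting called any of the 10 members, and Axl was not tested under the 75th percentile filter. Members kept their direction in these settings except C1qa, which was −0.051 with median centring. With median centring 0 members had groups that did not overlap, against 1 otherwise. Of genes outside the members, Ptpn11 was −0.092 with the mean of all probe sets, and Acbd4 was −0.043 with that mean and −0.25 with specific probe sets. The cause was not tested. With the replicate number as a block, 89 genes were called higher and 3 lower and 0 members were called. Fcnb, Anxa1 and Cd300lf were called (limma adjusted p = 0.0018, 0.0052 and 0.0048). By the labels the blocked arrays share only a number. Leaving out 1 array gave 6 to 2753 genes called higher, 0 to 1936 lower, 0 to 8 members called, 1 to 10 members with no overlap and a median over the members of −0.47 to 0.89. The 8 calls came without PBS replicate 2. All 10 members had no overlap without PBS replicate 1, and again without PBS replicate 2. In those fits the single PBS array only had to lie outside the 2 G-CSF values. The share of all tested genes that met this was not computed, so no conclusion is drawn from that count. Single differences ranged, over the arrays left out, as follows for members that turned: C1qa −0.66 to 0.67, C1qb −0.26 to 0.94, C1qc −0.42 to 0.82, Mertk −0.51 to 1.10, Axl −0.33 to 0.84, Gas6 −0.56 to 1.21, Tgm2 −0.30 to 0.53, Cd36 −1.04 to 0.33 and Lrp1 −0.70 to 1.03. Other genes that turned were Acbd4 −0.47 to 0.81, Adgre1 −0.27 to 0.82, B3gat3 −0.47 to 0.82, C1ra −0.59 to 1.64, Cd24a −0.15 to 1.51, Cd93 −0.014 to 0.95, Clec4f −0.99 to 0.80, Csf1r −0.27 to 0.83, Gadd45g −0.40 to 0.78, Mmp14 −0.41 to 0.79, Nr1h3 −1.11 to 0.35, Pros1 −0.20 to 0.99, Sirpa −0.028 to 1.35, Socs3 −0.16 to 0.55, Ube2e2 −0.41 to 0.80 and Vav1 −0.36 to 0.57. The differences that kept their sign but moved by over 1.5 times were Mfge8 0.12 to 0.93, Abca1 0.083 to 1.20, C1qbp −0.51 to −0.13, Cd47 0.18 to 0.43, Cd68 0.15 to 1.40, Cx3cl1 0.18 to 0.87, Dock1 0.21 to 0.73, Gulp1 0.30 to 0.72, Panx1 −1.69 to −0.60, Ptpn11 0.18 to 0.37 and Sphk2 0.036 to 1.07. The main probe sets of the members were above background on all 4 arrays; with a pseudocount of 92 the Fcnb difference was 2.31.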
